A study of Mus musculus with 14 samples.

Results

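The erythroid genes described here are Hbb-b2, Hba-a1, Alas2, Slc4a1, Bpgm and Epb42, genes of haemoglobin, haem synthesis, the red cell membrane and red cell metabolism. They were followed in whole mouse lung 1 month after carbon fibres were placed in the airways. The 6 genes were taken by symbol, through each probe's RefSeq accession, and they have 7 probes among 56605. Hba-a1 has 2 probes and the other genes 1 each. Of the 6 genes, 5 passed the filter on dim probes, which asked for a signal clear of the background in 3 or more of the 14 arrays, and so stood among 30579 genes tested. Epb42, which encodes the membrane protein that ties band 3 to the cytoskeleton, was not well above background on any of the 14 arrays, and no level is given for it.

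Male C57BL/6N mice received the fibre by intratracheal instillation at 200 µg per mouse, and each array holds the RNA of 1 lung. The VCF group (3 arrays) received carbon fibre before recycling, the CCF group (3 arrays) fibre after carbonization and the RCF group (3 arrays) fibre after firing. The control group (5 arrays) received PBS, the vehicle, in the same way. The labels give no genetic change in any group, and untreated mice are not among the samples analysed here. The design text calls the samples independent biological samples.

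Red cells lose their nucleus before they enter the blood, and the youngest of them, the reticulocytes, still carry messenger RNA for globins and for a few proteins made late in their maturation. Haemoglobin joins α and β globin chains with haem. Haem synthesis in red cell precursors starts with the enzyme that Alas2 encodes, and band 3, the product of Slc4a1, exchanges chloride for bicarbonate across the red cell membrane. The transcription factors GATA1 and KLF1 switch on many of these genes. The lung is rich in blood, so that RNA from a whole lung contains RNA from blood cells; fewer cells of a type and less RNA per cell cannot be told apart in such samples.

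RefSeq start sites (GRCm38.p6) were at hand for 4 of the 6 genes. The 250 bases upstream of the start are shown for the 3 of these that were measured and for Hbb-bt, the β globin gene whose level followed theirs most closely, since these genes varied together over the arrays. Capitals mark matches, on either strand, to AGATAA (also with T as the first base, G as the last, or both), the letters read by GATA factors, and to CCNCNCCC (letters read by KLF1 and related factors), and matches that overlap are joined.
Hba-a1, chr11:32283422-32283671, plus strand: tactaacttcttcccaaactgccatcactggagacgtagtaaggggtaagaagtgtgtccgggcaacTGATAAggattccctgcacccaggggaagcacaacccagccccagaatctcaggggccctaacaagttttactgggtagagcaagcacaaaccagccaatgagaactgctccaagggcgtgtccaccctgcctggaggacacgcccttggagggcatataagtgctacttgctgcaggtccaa
Hbb-bt, chr7:103813924-103814173, minus strand: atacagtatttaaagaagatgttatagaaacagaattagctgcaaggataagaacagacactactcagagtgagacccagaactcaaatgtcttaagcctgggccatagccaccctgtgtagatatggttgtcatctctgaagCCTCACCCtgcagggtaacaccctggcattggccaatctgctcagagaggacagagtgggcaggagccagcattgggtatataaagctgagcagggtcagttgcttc
Alas2, chrX:150547167-150547416, plus strand: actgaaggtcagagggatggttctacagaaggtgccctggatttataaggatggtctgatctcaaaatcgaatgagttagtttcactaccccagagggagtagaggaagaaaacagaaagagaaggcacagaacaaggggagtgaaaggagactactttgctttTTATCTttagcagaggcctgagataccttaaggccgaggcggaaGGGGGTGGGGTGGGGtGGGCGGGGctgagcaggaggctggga
Bpgm, chr6:34476106-34476355, plus strand: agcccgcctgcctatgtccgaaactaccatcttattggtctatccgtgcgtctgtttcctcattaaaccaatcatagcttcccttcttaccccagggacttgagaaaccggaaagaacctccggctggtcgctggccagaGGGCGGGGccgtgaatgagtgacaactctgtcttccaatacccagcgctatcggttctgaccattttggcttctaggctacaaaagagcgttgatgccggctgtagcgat
The Hba-a1 sequence held 1 GATA match, 183 to 178 bases before the start. The Alas2 sequence held 1 GATA match, 86 to 81 bases before the start, and 4 CCNCNCCC matches between bases 42 and 19, 3 of which overlap. Hbb-bt and Bpgm held 1 CCNCNCCC match each, and the Epb42 sequence, which is not shown, held 1 GATA match. Such letters are common: among the 250 bases before 32851 RefSeq starts, 26.5% held a GATA match, 45.9% a CCNCNCCC match and 8.19% both. TGANTCA, the core read by NF-E2, was found in none of the 4 sequences and in 6.75% of all; this says only that these letters are not in these windows.

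Levels are given as log2 of the processed signal minus the 75th percentile of the same array, so that 0 stands for that percentile, and they are compared only within a probe. The 3 arrays VCF 1, CCF 2 and RCF 1 were dim, with 75th percentiles of 277, 323 and 375 signal units, whereas the others lay between 891 and 2953. Between 47.1% (VCF 1) and 70.0% (RCF 2) of the probes were well above background, and no spot was saturated on any array. The arrays lay on 3 slides: slide 1 held VCF 1 and 2, CCF 1 and 2, RCF 1 and control 1 and 2; slide 2 held VCF 3, CCF 3 and control 3; slide 3 held RCF 2 and 3 and control 4 and 5. Slide 3 was scanned on another day than slides 1 and 2. Of 8 marker genes of red cell precursors, 7 have a probe. The probes of 2 of them (Rhag and Kel) were not well above background on any array, and 5 (Gata1, Epor, Tspo2, Trim10 and Klf1) were so on 3 arrays or more. The genes are therefore called red cell genes here, without a claim that red cell precursors were present.

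The VCF group had the lowest mean level of each of the 5 measured red cell genes. In VCF lungs the mean of all 5 lay below the control mean. Single lungs did not all follow: control 1 and control 4 lay below VCF 3 in Alas2 and Slc4a1. For the 4 genes above background on all arrays the fold ran from 1.63 for Bpgm to 3.17 for Alas2, whereas Slc4a1 was not above background on 2 of 3 VCF arrays. In CCF and RCF lungs the values of all 5 genes overlapped those of the control lungs. None of the 5 passed the threshold of an adjusted p of 0.05 (limma, Benjamini-Hochberg adjustment over all genes tested) in any of the 6 comparisons. Of all genes tested, 0.085% passed between VCF and control lungs, 5.99% between CCF and control, 0.154% between RCF and control, 0.222% between CCF and VCF, 0.00981% between RCF and VCF and 0.00327% between RCF and CCF.

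Hbb-b2, which encodes a β globin chain of adult haemoglobin, was at 3.08, 2.59 and 3.29 in VCF lungs. It was at 4.85, 5.27 and 5.09 in CCF lungs, at 5.24, 4.92 and 4.69 in RCF lungs, and at 3.86, 4.99, 5.32, 3.59 and 5.08 in control lungs. Each VCF value was below every other value, while the CCF and RCF values lay inside the wide control range. C57BL/6 mice carry β globin genes that are listed under other names as well (Hbb-bs and Hbb-bt), and a probe for Hbb-b2 may read near-identical copies. VCF lungs averaged 2.99 ± 0.36 (SD, n = 3), against 4.57 ± 0.78 in control lungs (SD, n = 5). The difference of −1.58 ± 0.38 (SE), a 2.99-fold lower level, had an adjusted p of 0.16 in limma.

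Hba-a1, which encodes α globin, was at 7.43, 6.39 and 7.26 in VCF lungs by its brighter probe. It was at 7.62, 8.10 and 7.50 in CCF lungs, at 8.05, 7.52 and 7.73 in RCF lungs, and at 7.59, 8.49, 7.74, 7.59 and 8.31 in control lungs. VCF values again lay below all others, although VCF 1 came within a small step of the lowest CCF value. The probe may also read Hba-a2, a near-identical α globin gene: the Hba-a2 probe gave a VCF difference of −0.92 ± 0.29 (SE), and Hba-a1 gave −0.92 ± 0.29 (SE), an adjusted p of 0.29 in limma. The second Hba-a1 probe, also above background on all 14 arrays, lay −1.52 ± 0.42 (SE) from the control mean in VCF lungs, so that the 2 probes differed in size and not in direction there. Without VCF 2 the brighter probe gave −0.60. In CCF and RCF lungs they differed in direction, with −0.20 and −0.17 by the brighter probe and 0.32 and 0.06 by the other.

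Alas2, the first enzyme of haem synthesis in red cell precursors, was at 0.03, −1.03 and 0.46 in VCF lungs. It was at 2.62, 2.21 and 2.67 in CCF lungs, at 1.70, 1.58 and 0.75 in RCF lungs, and at 0.33, 2.24, 3.06, 0.18 and 1.63 in control lungs. VCF values overlapped the control values: control 1 and control 4 lay below VCF 3, and above VCF 1 and VCF 2. The difference between VCF and control lungs was −1.67 ± 0.61 (SE), an adjusted p of 0.36 in limma. CCF lungs had the least spread of this gene (SD 0.25) and control lungs the most (SD 1.24).

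Slc4a1, the anion exchanger band 3, was at −4.59, −5.32 and −3.85 in VCF lungs. It was at −2.77, −2.32 and −1.57 in CCF lungs, at −2.59, −2.70 and −3.26 in RCF lungs, and at −4.10, −1.08, −1.77, −4.14 and −2.83 in control lungs. Only VCF 3 of the 3 VCF arrays measured it above background, whereas all CCF, RCF and control arrays did. VCF and control values overlapped. The difference of −1.80 ± 0.66 (SE), an adjusted p of 0.37 in limma, includes the 2 VCF signals at background, so that its size is uncertain, and it was −0.84 with normexp background correction.

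Bpgm encodes the enzyme that makes the bisphosphoglycerate which lowers the oxygen affinity of haemoglobin. It was at 0.49, 0.47 and 0.93 in VCF lungs. It was at 1.54, 1.26 and 1.69 in CCF lungs, at 1.16, 1.49 and 1.31 in RCF lungs, and at 0.94, 1.16, 2.04, 1.10 and 1.43 in control lungs. VCF values lay below all others, with VCF 3 just under control 1. The difference between VCF and control lungs was −0.70 ± 0.23 (SE), the smallest of the 5, with an adjusted p of 0.32 in limma.

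**Figure D1:**
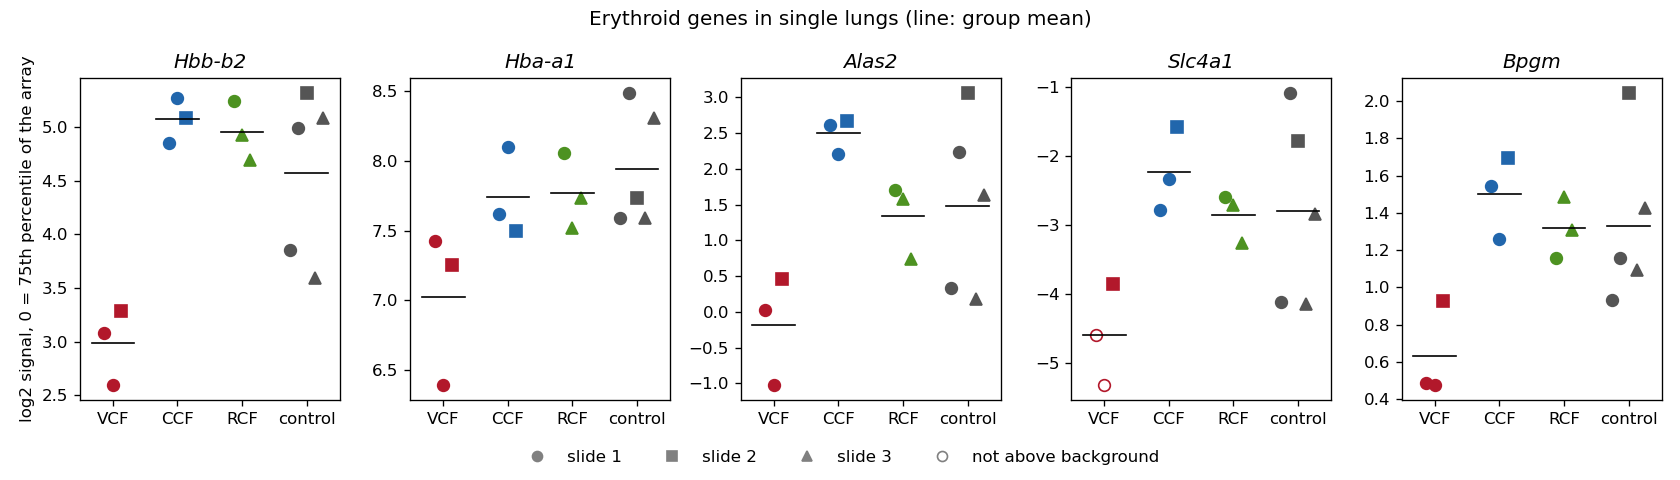
Log2 signal of the 5 measured genes in each lung (y axis, 0 = 75th percentile of the array) by group (x axis: VCF, CCF, RCF, control); symbols give the slide, open symbols a signal not above background, lines the group means. The VCF points of Hbb-b2, from 2.59 to 3.29, lie below all others, and control 1 and control 4 are the lowest control lungs in each gene.

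Set against the whole array, 0 of 5 genes passed the adjusted threshold between VCF and control lungs, where 26 of 30579 genes did (0.085%; lower, 0.0556%). At an unadjusted p of 0.05 in limma, 5 of 5 were lower in VCF lungs, against 4.99% of all genes. The 5 genes were chosen with earlier results of these data known, and they vary together over the arrays. Counts of them set against all genes are therefore a description and not a test. The 5 include Slc4a1, which was above background on only 1 of 3 VCF arrays. For 3 of 5 (Hbb-b2, Hba-a1 and Bpgm) the VCF values all lay below the control values, against 3.91% of all genes. The median difference of the 5 genes was −1.58 and that of all genes −0.0027. The direction was the same on both slides that hold VCF and control arrays. Within slide 1 the differences of the 4 genes above background on all arrays ran from −1.78 for Alas2 to −0.56 for Bpgm. Within slide 2, with only VCF 3 and control 3, those of the 5 genes ran from −2.60 for Alas2 to −0.48 for Hba-a1. Control 3 held the highest of the 14 values of Hbb-b2, Alas2 and Bpgm, so that the sizes within slide 2 rest on 1 high control lung. Without VCF 2, 2 of the 5 genes (Hbb-b2 and Bpgm) had an unadjusted p under 0.05, and the median difference was −1.24. Without the 3 dim arrays, left out after the data were seen, it was also 2 of 5, with a median of −1.63.

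The lungs differed within groups in a shared way. VCF 2 held the lowest of the 14 values in 5 of 5 genes, and VCF 1 was among the lowest 3 in 5 of 5. Among the control lungs, control 1 and control 4 held the lowest 2 values in 5 of 5 genes. The median deviation of the 5 genes from the control mean was −1.46, −1.98 and −1.03 in VCF lungs, 0.21, 0.46 and 0.52 in CCF lungs, and 0.20, 0.10 and −0.21 in RCF lungs. In control lungs it was −0.71, 0.54, 0.75, −0.97 and 0.14. Every VCF lung was below every control lung in this measure, and the lowest control lung, control 4, stood next to the highest VCF lung, VCF 3. Control 1 lies on slide 1 and control 4 on slide 3, each beside a control lung with higher levels.

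Over the 14 arrays, Pearson's r between Hbb-b2 and the others was 0.90 for Alas2, 0.90 for Slc4a1, 0.84 for Bpgm and 0.76 for Hba-a1. With the group means removed it was 0.90, 0.85, 0.60 and 0.63 in the same order. The least alike pair was Hba-a1 and Bpgm, at 0.45, and −0.08 with the group means removed. These values describe the arrays, which share 3 slides and include the 3 dim ones, and they are given without a test.

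**Figure D2:**
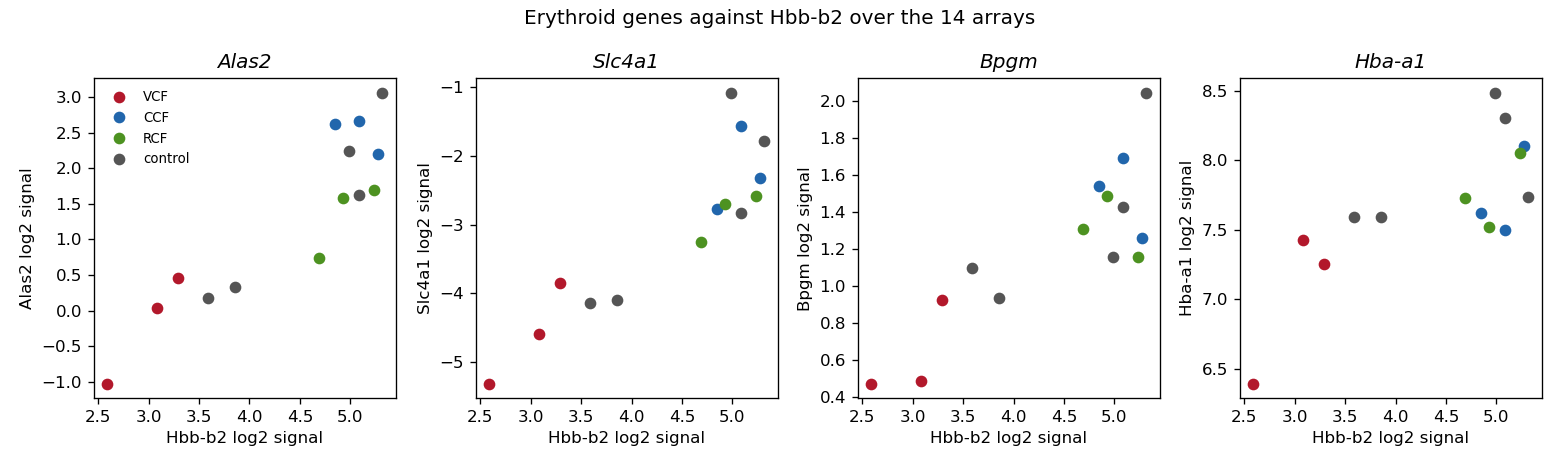
Log2 signal of Alas2, Slc4a1, Bpgm and Hba-a1 (y axes) against that of Hbb-b2 (x axis), 1 point per lung, coloured by group. The 3 VCF lungs and control 1 and 4, which lie between 2.59 and 3.86 on the Hbb-b2 axis, are apart from the remaining lungs, which lie between 4.69 and 5.32.

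Between CCF and control lungs the 5 genes were spread over both directions. Hbb-b2 differed by 0.50 (95% interval −0.32 to 1.32), Alas2 by 1.01 (−0.32 to 2.33), Slc4a1 by 0.57 (−0.88 to 2.02), Bpgm by 0.17 (−0.34 to 0.68) and Hba-a1 by −0.20 (−0.83 to 0.43). The values of all 5 overlapped the control values. None of the 5 passed the adjusted threshold, with adjusted p between 0.35 and 0.74 in limma, in a comparison where 5.99% of all genes did. Within slide 1, with 2 arrays of each group, the CCF mean was above the control mean by 0.64 for Hbb-b2, 1.13 for Alas2, 0.35 for Bpgm and 0.05 for Slc4a1, and Hba-a1 differed by −0.18. Within slide 2, where there is 1 array of each group, the CCF lung was below the control lung in Hbb-b2, Hba-a1, Alas2 and Bpgm, by −0.40 to −0.23 (log2).

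Between RCF and control lungs the differences were near 0. Hbb-b2 differed by 0.38 (95% interval −0.43 to 1.20), Hba-a1 by −0.17 (−0.80 to 0.46), Alas2 by −0.14 (−1.47 to 1.18), Slc4a1 by −0.06 (−1.51 to 1.39) and Bpgm by −0.01 (−0.52 to 0.50). All 5 overlapped the control values and 0 of 5 passed the adjusted threshold, where 0.154% of all genes did. The adjusted p ran from 0.74 to 0.99 in limma. The intervals of Alas2 and Slc4a1 leave room for differences of more than 1 log2 unit in either direction.

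**Figure D3:**
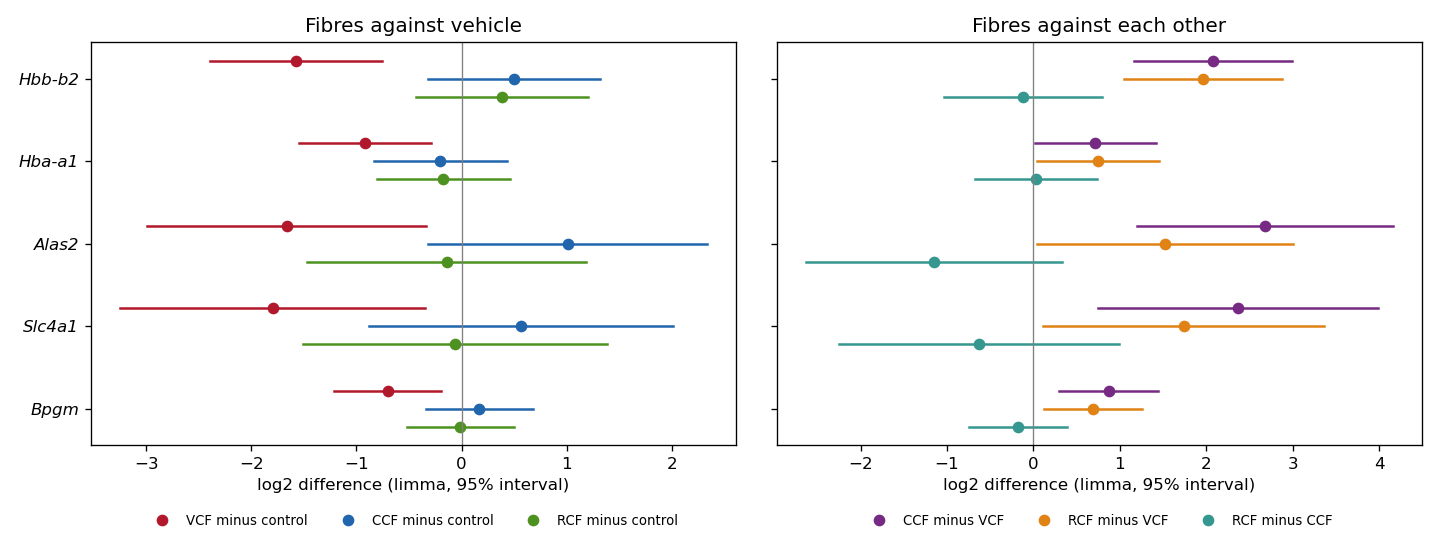
Log2 difference (x axis, with 95% intervals from limma) of the 5 genes (y axis) for each fibre against vehicle, left, and between fibres, right. The 5 VCF intervals lie below 0, from −3.25 to −0.19 in all, while the CCF and RCF intervals against control cross it.

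The fibres were also compared with each other. The pairs share the VCF arrays with the comparison above and are not independent of it. Counts of the 5 genes are a description here too, since the genes were chosen with earlier results of these data known. All 5 genes were higher in CCF than in VCF lungs without overlap, against 10.7% of all genes. The difference was 2.08 ± 0.42 (SE) for Hbb-b2, a 4.23-fold higher level. It was 2.67 ± 0.68 for Alas2, 2.36 ± 0.74 for Slc4a1, 0.87 ± 0.26 for Bpgm and 0.72 ± 0.32 for Hba-a1. Slc4a1 was above background on only 1 of 3 VCF arrays, so that its size and its lack of overlap are uncertain. Under another way of processing its difference was as low as 1.01. The size for Hba-a1 depended on the probe and on 1 array: its second probe gave 1.84, and without VCF 2 the brighter probe gave 0.40, with an unadjusted p of 0.22 in limma. At an unadjusted p of 0.05 in limma 5 of 5 were higher, against 7.56% of all genes, but 0 of 5 passed the adjusted threshold, where 0.0948% of all genes were higher. The adjusted p was 0.072 for Hbb-b2 and 0.13 for Alas2. With slide as a fixed block in limma, 3 of 5 passed: Hbb-b2 with an adjusted p of 0.038, Bpgm with 0.040 and Alas2 with 0.048. With slide as a random block the same 3 passed, with an adjusted p of 0.027, 0.047 and 0.045 in limma. Of the 30579 genes tested, 563 passed with the fixed block and 656 with the random block, against 68 without a block.

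All 5 genes were likewise higher in RCF than in VCF lungs without overlap, against 10.5% of all genes. The difference was 1.96 ± 0.42 (SE) for Hbb-b2, 1.74 ± 0.74 for Slc4a1, 1.52 ± 0.68 for Alas2, 0.74 ± 0.32 for Hba-a1 and 0.69 ± 0.26 for Bpgm. For Slc4a1, above background on only 1 of 3 VCF arrays, the size and the lack of overlap are again uncertain. Under another way of processing its difference was as low as 0.66. The second Hba-a1 probe gave 1.58, and the brighter one 0.43 without VCF 2. At an unadjusted p of 0.05 in limma 5 of 5 were higher, against 6.17% of all genes, and 0 of 5 passed the adjusted threshold (0.00981% of all genes). The lowest adjusted p was 0.20, for Hbb-b2, and without the 3 dim arrays 1 of 5 had an unadjusted p under 0.05. That count was also 1 of 5 without VCF 2, and 2 of 5 without VCF 1, RCF 1 or RCF 2. Slide 1 is the only slide with both groups, and there RCF 1 exceeded the mean of VCF 1 and 2 by 0.68 for Bpgm to 2.40 for Hbb-b2.

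RCF and CCF lungs overlapped in 4 of the 5 genes, whose differences ran from −0.63 for Slc4a1 to 0.03 for Hba-a1. Alas2 was lower in each RCF lung than in each CCF lung, by −1.15 ± 0.68 (SE; 95% interval −2.63 to 0.33), with an adjusted p of 0.64 in limma. Such a lack of overlap with the lower values in RCF lungs was seen in 7.13% of all genes, and 0 of 5 genes passed the adjusted threshold (0.00327% of all genes).

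Other globin genes were looked at as the same family. The list holds 11 genes, of which 9 have a probe and 6 were measured; probes for the embryonic chains Hbb-bh2, Hbb-y and Hba-x were not well above background on any array. Hbb-bt, an adult β globin gene of this strain, was at 4.75, 4.20 and 5.12 in VCF lungs and at 5.70, 6.96, 7.09, 5.01 and 6.59 in control lungs. It overlapped through control 4, and its difference of −1.58 ± 0.45 (SE) had an adjusted p of 0.23 in limma. Hbb-b1, the other adult β globin gene of the older naming, differed by −1.36 ± 0.51 (SE; adjusted p 0.39). In CCF lungs Hbb-bt was at 6.83, 7.11 and 6.96, all above the VCF values, and in RCF lungs at 6.93, 6.37 and 5.85. All 6 measured chains were below the control mean in VCF lungs, with a median of −1.04. At an unadjusted p under 0.05 in limma 3 of 6 were lower, against 4.99% of all genes. These were Hbb-bt, Hbb-b1 and Hba-a2. Their probes and those of Hbb-b2 and Hba-a1 may read near-identical copies, so that this count may hold the same signal again. Hbb-bh1, Hbq1a and Hbq1b were above background on no more than 6 arrays each.

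The wider haem pathway showed smaller differences in VCF lungs. Of 17 genes of haem synthesis and iron uptake, all measured, 0 passed the adjusted threshold and 3 were lower at an unadjusted p under 0.05, against 4.99% of all genes. These were Fech, which inserts iron into the ring (−0.47 ± 0.18, SE), Slc25a37, which carries iron into mitochondria (−0.50 ± 0.20, without control 4, where its spot was marked as an outlier), and Urod, an earlier enzyme of the pathway (−0.25 ± 0.10). The dim other probes of Slc25a37, above background on 3 and 7 arrays, differed by 1.17 and 0.04. The median over the 17 genes was −0.11. In CCF lungs 2 of the 17 rose, against 3.78% of all genes: Slc11a2, an iron transporter, by 0.43 ± 0.11 (SE; adjusted p 0.041 in limma), and Ireb2, an iron-sensing regulator of messenger RNA, by 0.63 ± 0.17 (adjusted p 0.048). The other Slc11a2 probes gave 0.49 and 0.005 in CCF lungs, each above background on 14 arrays, and 0.65 on a probe above it on 6. The probes thus disagree on a rise of Slc11a2. With each of the 14 arrays left out in turn, Slc11a2 passed 3 times (without control 2, VCF 1 or RCF 1) and Ireb2 2 times (without control 3 or VCF 1), with adjusted p up to 0.123 and 0.175. In RCF lungs 0 of 17 passed.

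Of 19 genes of the red cell membrane and surface 14 were measured, and 0 passed the adjusted threshold in VCF lungs. Tspo2, a transporter of late red cell precursors, differed by −0.74 ± 0.31 (SE) and Gypc, glycophorin C, by −0.38 ± 0.17, both with an unadjusted p under 0.05 (lower in 2 of 14 genes, against 4.99% of all genes). Both sizes rested on single arrays: Gypc was at −0.19 without VCF 1, and Tspo2 at −0.46 without VCF 3 and −1.12 without VCF 1. Epb41, which encodes a protein of the membrane skeleton, which many other cells express too, differed by 0.53 ± 0.17 in VCF lungs, at an unadjusted p under 0.05 (higher in 1 of 14, against 4.97% of all genes). Epb41 rose in CCF lungs, by 0.74 ± 0.17 (SE; adjusted p 0.030 in limma). Of its 3 other probes past the filter, 1 gave 0.87 in CCF lungs and the others −1.69 and −0.73, so that the probes disagree. The call of Epb41 ended when control 1, 4 or 5 or any 1 CCF array was left out, with adjusted p up to 0.112. The median over the 14 genes was −0.07 in VCF lungs.

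Among 9 measured genes of late red cell maturation 0 passed in VCF lungs and 1, Trim10, was lower at an unadjusted p under 0.05, against 4.99% of all genes, with a median of −0.14 over the 9. Trim10, an erythroid ubiquitin ligase, differed by −1.28 ± 0.58 (SE; adjusted p 0.49 in limma). It was not well above background on any VCF array and was so on 3 of 5 control arrays.

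Between CCF and VCF lungs Hbb-bt differed by 2.27 ± 0.50 (SE), with an adjusted p of 0.095 in limma, and of 0.037 with slide as a fixed block. Among 11 genes of erythroid transcription factors and the erythropoietin receptor 0 passed in VCF lungs. The lower ones at an unadjusted p under 0.05 were Bcl11a, a repressor of embryonic globin genes that B cells express as well (−0.95 ± 0.22, SE), and Epor, the receptor itself (−0.55 ± 0.19), 2 of 11 against 4.99% of all genes. With single arrays left out in turn, Bcl11a kept an unadjusted p under 0.05 each time, while Fech, Slc25a37, Urod, Gypc, Tspo2, Trim10 and Epor did not. Bcl11a was not particular to VCF lungs. It was also lower in CCF lungs, by −0.48, and in RCF lungs, by −0.50, each at an unadjusted p under 0.05 in limma. Its other probes, above background on 14 and 6 arrays, gave −0.59 and 0.08 in VCF lungs. Gata1 was above background on 13 arrays and Klf1 on no more than 4. Of 9 genes of red cell metabolism and antioxidants 0 passed and 0 had an unadjusted p under 0.05 in VCF lungs, with a median of −0.13. Of 12 genes of haem clearance and iron recycling 0 passed in VCF lungs. Slc40a1, the iron exporter ferroportin, differed by 0.69 ± 0.24 (SE; adjusted p 0.33 in limma), and by 0.50 to 1.01 with single arrays left out. It was the 1 of 12 that was higher at an unadjusted p under 0.05 in limma, against 4.97% of all genes. Of the 12 genes 8 lay below 0, with a median of −0.10.

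**Figure D4:**
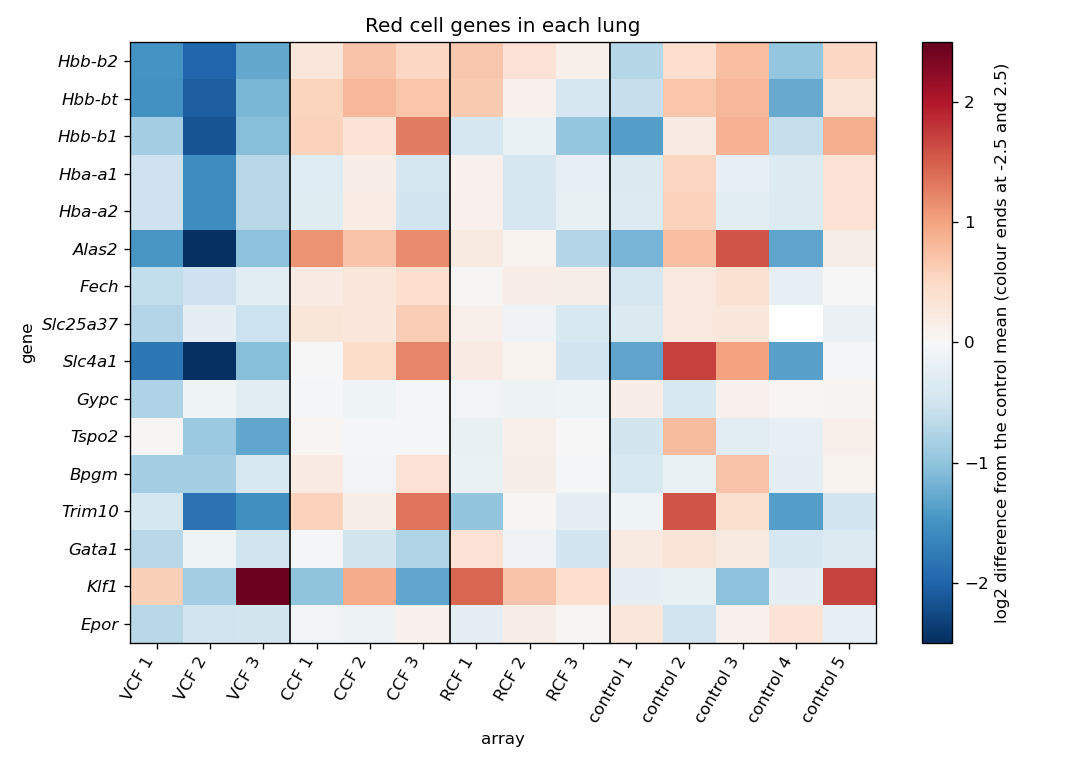
Log2 difference from the control mean (colour, blue for lower) of red cell genes (rows) in the 14 lungs (columns, VCF, CCF, RCF, control; black lines part the groups). Hbb-b2, Hbb-bt, Alas2 and Slc4a1 are blue in the 3 VCF lungs and in control 1 and 4, whereas Fech, Gypc and Epor vary less; Klf1 was above background on no more than 4 arrays, and the blank cell is a spot of Slc25a37 marked as an outlier.

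Genes outside the list were ranked by the likeness of their levels to the mean of the 5 genes, as Pearson's r over the 14 arrays among 15502 genes with a symbol. Among the 10 most alike were Hbb-bt (0.98), Apol11b (0.94), Sgo1 (0.93), Fech (0.93), Ncapg (0.91), Pbk (0.91), Prc1 (0.90), Hbb-b1 (0.88) and Ccna2 (0.88). Sgo1, Ncapg, Pbk, Prc1 and Ccna2 act in cell division. With each group's mean removed, the 10 most alike included Apol11b (0.96), Hbb-bt (0.94), Kpna1 (0.93), Dnajb1 (0.93), Rc3h2 (0.93), Iqcb1 (0.92), Hspa1b (0.90), Slc37a2 (0.90) and Aven (0.89). The cell division genes were absent from that second ranking, and Hbb-bt and Apol11b stood in both. The arrays share slides, r was the measure that chose these genes, and no test was made.

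Apol11b, a gene of the apolipoprotein L family, was above background on 1 of 3 VCF, 3 of 3 CCF, 3 of 3 RCF and 4 of 5 control arrays. Its difference was −1.57 ± 0.80 (SE) between VCF and control lungs and 2.81 ± 0.90 between CCF and VCF lungs, with an adjusted p of 0.56 and 0.20 in limma. Prc1 differed by −0.88 ± 0.17 and Ccna2 by −0.86 ± 0.17 between VCF and control lungs, with an adjusted p of 0.093 and 0.095. Both were measured on all 14 arrays. For both the VCF values lay below every control value, as they did for 3.91% of all genes. Both genes were chosen by their likeness to the red cell genes.

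Markers of other blood cells were set beside the red cell genes in the same lungs. On the median of the list, 12 neutrophil genes stood at 0.75 to 1.49 from the control mean in the 3 VCF lungs, against −0.27 to 0.23 in control lungs. The median difference was 1.00 with 12 of 12 above 0. Stfa1, a stefin of neutrophils, passed the adjusted threshold (2.69 ± 0.37, SE; adjusted p 0.040 in limma). It was 1 of 12 genes, against 0.085% of all genes in either direction. With single arrays left out in turn, Stfa1 passed 2 of 14 times (without control 2 or RCF 3). The 8 B cell genes stood at −0.87 to −0.59 in VCF lungs, against −0.40 to 0.35 in control lungs. This was not particular to VCF lungs, since the same genes stood at −0.71 to −0.59 in RCF lungs. The 10 genes of T and NK cells stood at −0.76 to −0.42 in VCF lungs, against −0.09 to 0.13 in control lungs. The 12 platelet and megakaryocyte genes stood at −0.11 to 0.25 in VCF lungs, within the −0.52 to 0.46 of control lungs. Of the B cell, T and NK cell and platelet genes 0 passed the adjusted threshold in VCF lungs.

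The 12 cell cycle genes stood at −1.12 to −0.72 in VCF lungs, against −0.25 to 0.31 in control lungs, with a median difference of −1.01. Cdca3, Ckap2, Kif20a and Mki67, all genes of dividing cells, fell in VCF lungs, with log2 differences of −1.30, −1.45, −1.06 and −0.97 and an adjusted p of 0.032 to 0.048 in limma. They were 4 of 12 genes, against 0.0556% of all genes that passed as lower. Cdca3, Ckap2 and Kif20a were above background on 2 of 3 VCF arrays. Under other ways of processing the differences were as small as −0.77, −0.71, −0.53 and −0.83 in the same order. With single arrays left out in turn, Cdca3 passed 6, Kif20a 4, Ckap2 1 and Mki67 0 of 14 times, with adjusted p up to 0.197. In CCF lungs the red cell genes were at 0.21 to 0.52 on this measure while the neutrophil genes were at −1.70 to −0.83 and the B cell genes at −0.73 to −0.37. The summed linear level of the 5 red cell genes, on a log2 scale, was 6.52 to 7.52 in VCF lungs, 7.81 to 8.32 in CCF lungs, 7.78 to 8.27 in RCF lungs and 7.70 to 8.64 in control lungs. Most of this sum is Hba-a1, with a mean level of 7.67 against 4.42 for Hbb-b2, the next brightest. For the 12 neutrophil genes the summed level was 8.17 to 8.71 in VCF lungs and 7.51 to 7.97 in control lungs. The part of these other cells in the values of the red cell genes was not tested.

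**Figure D5:**
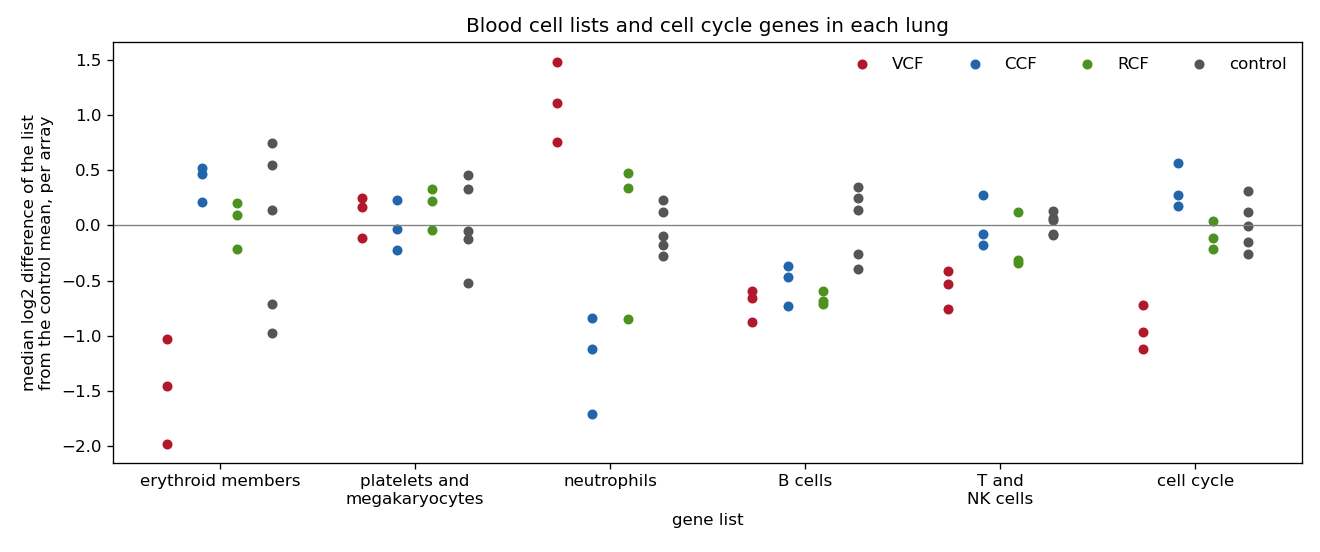
Median log2 difference from the control mean (y axis) of each gene list (x axis) in single lungs, coloured by group in the order VCF, CCF, RCF, control. The red cell genes of VCF lungs, at −1.98 to −1.03, lie below those of control lungs, at −0.97 to 0.75; the platelet genes overlap in all groups.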

How the data were processed

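RNA from 14 mouse lungs was hybridised to 1-colour Agilent arrays. Per the file headers, Feature Extraction 10.7.3.1 produced the deposited intensity values: the processed signal, with background subtracted, and the median signal of spot and local background, used for a normexp alternative because no mean signal column is held here. The authors' deposited series table holds log2 values of 32177 probes, each equal to log2 of the processed signal minus 1 constant per array, the origin of which no source used here states; scale and direction follow from that match, genes were not centred, and the table served as an alternative. Its column medians were 0.30, −0.30 and −0.37 for VCF, −0.36, 0.16 and −0.34 for CCF, −0.17, −0.52 and −0.49 for RCF and −0.05, −0.03, −0.29, −0.50 and −0.49 for control.

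Log2 processed signals were set against each array's 75th percentile without control spots (3671 of 62976). Spots marked as outliers were dropped, spots of 1 probe averaged, and probes well above background on 3 arrays kept (37983 of 56605). RefSeq annotation gave 32994 probes a symbol. The probe with the highest mean stood for a gene: 30579 were tested, or 30574 where RCF takes part. Limma 3.58.1 in R 4.3.3 fitted the 4 group means to all arrays (lmFit, eBayes), with Benjamini-Hochberg adjustment over all genes; the fit was tested on simulated data. With 3 to 5 arrays a group, precision is limited by their number. Alternatives were another background correction, scaling, filters, the mean of probes, slide and replicate blocks, and arrays left out.

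Genes were named by rule: all 6 members, listed genes past a threshold or brightest in their list, and the 10 genes most like the members' mean. Some listed genes are not reported here and were left out of the lists, while the fit and its adjustment cover all genes. The members and lists were chosen with earlier results of these data known. Genes of the lists that were named for an unadjusted p, and Apol11b, Prc1 and Ccna2 for which values are given, were picked after their values were seen. Same-numbered arrays of different groups were not paired: of 18 such pairs 12 had deviations that correlated above 0.1 (median 0.18), 12 share a slide, and the labels name no shared litter or day. Of 54 pairs with different numbers 11 correlated above 0.1 (median −0.04), and 13 share a slide. Same-numbered arrays were thus more alike, and whether this came from the slide was not tested.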

Additional observations from a re-analysis of the deposited data

Results flagged for a closer look

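Single control lungs stood apart in 2 of 33 genes checked for this. Gypc was at 1.92 in control 2, against 2.37 to 2.49 in the other control lungs, and Ireb2 was at 1.80 in control 3, against 1.16 to 1.35. Chance alone flags about 1 in 20 such groups. Other genes differed between fibres by a test of the difference itself, at an adjusted p under 0.05 in limma. Between CCF and VCF lungs the log2 difference was 1.32 for Prc1, 1.41 for Mki67, 1.35 for Cdca3, 1.80 for Ckap2 and 1.43 for Kif20a, genes of dividing cells, and −3.43 for Stfa1, a neutrophil gene. Between RCF and VCF lungs it was 1.33 for Kif20a. None of the 5 measured red cell genes met this mark, at adjusted p of 0.0717 or more.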

How the results depend on the processing

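Each comparison was recomputed under 28 settings. Between VCF and control lungs all measured red cell genes were below 0 and 0 passed in each of the 28. Some settings could not change these differences: a CCF or RCF array left out, only the groups compared, or saturated spots left out, as none was saturated. The median ran from −1.82 to −0.97, the latter with normexp background correction (−1.58 as reported). The lowest adjusted p of any in limma was 0.0834. Counts over all genes moved widely, from 0 to 96 for VCF against control, 2 to 2953 for CCF against control, 0 to 468 for RCF against control, 0 to 656 for CCF against VCF, 0 to 26 for RCF against VCF and 0 to 25 for RCF against CCF. For CCF against control the median was −0.24 within slide 2 and 0.35 within slide 1, 0.16 with slide as a fixed block, 0.18 with normexp, and 0.23 to 0.69 with single arrays left out, lowest without control 4 (0.50 as reported). For CCF against VCF it was 1.01 with normexp and 1.48 for the 4 genes above background on all arrays (2.08 as reported). The red cell genes past the threshold numbered 1 under that filter, which tested fewer genes. They numbered 3 with slide as a fixed block and 3 as a random block, against 0. Of all genes 190 of 19877, 563 of 30579 and 656 of 30579 passed in the same order, against 68 as reported. For RCF against VCF the median was 0.80 with normexp, 2.26 with slide as a fixed block and 2.20 within slide 1 (1.52 as reported). Where not stated, the cause was not tested.

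Values of single genes kept direction and side of the threshold 1685 times, lost a call 143 times, gained one 18 times and turned 37 times. Those that turned were mostly near 0. With the mean of a gene's probes, Slc25a37 was 0.79 (VCF against control), Hba-a1 0.061 and Epb41 −0.20 (CCF against control) and Hba-a1 −0.12 (RCF against CCF). With quantile normalization Hba-a1 was 0.17 (CCF) and 0.18 (RCF against control). The other Hba-a1 probe, added after the data were seen, gave 0.32 (CCF) and 0.062 (RCF against control) and −0.26 (RCF against CCF). With slide as a fixed block, RCF against control gave 0.22 for Alas2, 0.32 for Slc4a1 and 0.068 for Bpgm, and as a random block 0.050, 0.14 and 0.028. RCF against CCF gave 0.23 for Hbb-b2 and 0.16 for Slc4a1 with the fixed block, and 0.066 for Hbb-b2 with the random one. Without the 3 dim arrays, a setting added after the data were seen, RCF against control gave 0.066 for Bpgm and −0.16 for Hbb-bt. With single arrays left out, RCF against control ran from −0.47 to 0.25 for Alas2, −0.40 to 0.36 for Slc4a1, −0.11 to 0.16 for Bpgm and −0.20 to 0.38 for Hbb-bt, and RCF against CCF from −0.26 to 0.012 for Hbb-b2 and −0.11 to 0.21 for Hba-a1.

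With the replicate number as a block, although the numbers were not taken as pairs, the median was −1.73 for VCF against control, 0.12 for CCF against control, −0.17 for RCF against control, 2.08 for CCF against VCF, 1.52 for RCF against VCF and −0.18 for RCF against CCF, with 0 red cell genes past the threshold in each. Over all genes it called 0, 2, 0, 0, 0 and 1 in the same order. Hbb-bt turned to −0.20 for RCF against control.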
